A study of Mus musculus with 6 samples.

Results

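The miR-181 family is a set of microRNAs (miRNAs) whose guide strands begin with the same bases. Its members were taken as the 7 miRNA labels mmu-miR-181a-5p, mmu-miR-181b-5p, mmu-miR-181c-5p, mmu-miR-181d-5p, mmu-miR-181a-1-3p, mmu-miR-181a-2-3p and mmu-miR-181c-3p, out of 1091 miRNA labels in the deposited table. They held 1147 of its 143934 read sequences, where only sequences with a member as their sole label were counted. The table also held 3 further labels of the family, mmu-miR-181b-1-3p, mmu-miR-181b-2-3p and mmu-miR-181d-3p, with 16 sequences. The data are short RNAs bound to Argonaute, the protein that carries a small RNA within the RNA-induced silencing complex (RISC). They were pulled down with a GW182 peptide that binds Ago1-4 from cortex and hippocampus of BL6 mice (C57BL/6J background in the study's methods), combined in one sample, and sequenced (Ago-RP-Seq). There were 3 libraries of mice aged 2 months (2M) and 3 of mice aged 18 months (18M), with no treatment or transgene named for either age. The comparison addressed how the RISC-bound small RNAs (R-sRNAs) of the brain differ between young and old mice. Values are in RPM, the reads of an RNA scaled to a common library total, and RPM gives a share of the RISC content rather than an amount per cell. In such bulk tissue, fewer cells of a type and less RNA per cell cannot be told apart.

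A miRNA hairpin yields a strand from each arm, named 5p and 3p. For miR-181 the 5p strand is the guide, the strand that mostly stays in Argonaute, and the 3p strand is the star. The guide finds target mRNAs through its seed, the bases from position 2 onwards, so miRNAs with one seed share many predicted targets. The family is best known for its role in lymphocyte development, and it is abundant in brain, where it has been studied in neurons and glia.

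RefSeq held a mature sequence for 7 of 7 members and for 3 of 3 further labels (GRCm38.p6). The guide strands are shown first, with the seed, positions 2 to 8, in capitals, because all of them have the same seed and differ only after it.
mmu-miR-181a-5p: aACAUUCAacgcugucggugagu
mmu-miR-181b-5p: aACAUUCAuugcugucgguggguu
mmu-miR-181c-5p: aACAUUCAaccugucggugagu
mmu-miR-181d-5p: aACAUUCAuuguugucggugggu
Counted from the 5′ end over their shared length, mmu-miR-181b-5p and mmu-miR-181d-5p differed at 1 base, C12U, with the base of the first-named miRNA written first. In the same notation mmu-miR-181a-5p and mmu-miR-181b-5p differed by A9U, C10U and A21G. The star strands are shown because they tell the gene copies apart.
mmu-miR-181a-1-3p: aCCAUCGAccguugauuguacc
mmu-miR-181a-2-3p: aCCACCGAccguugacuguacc
mmu-miR-181c-3p: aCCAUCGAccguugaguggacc
The star strands of the copies of miR-181a differed by U5C, which lies within the seed, and by U16C. The stars mmu-miR-181a-1-3p and mmu-miR-181c-3p had the same seed and differed by U16G and U19G.

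The guide strands come from 6 hairpins in 3 pairs, each pair on 1 chromosome (GRCm38, GENCODE M21). Mir181a-1 (chr1:137966455-137966541, plus strand) and Mir181b-1 (chr1:137966639-137966718, plus strand) lay 97 bases apart in an intron of Gm4258, annotated as a processed transcript. Mir181b-1 lay wholly, and Mir181a-1 with 11 bases, in an exon of the lincRNA A430106G13Rik on the same strand. Mir181a-2 (chr2:38852735-38852810, plus strand) and Mir181b-2 (chr2:38853830-38853918, plus strand) lay 1019 bases apart, opposite to an intron of Nr6a1, which encodes a nuclear receptor. Mir181b-2 also lay opposite to an exon of Gm44144, a transcript model still to be tested. Mir181c (chr8:84178873-84178961, minus strand) and Mir181d (chr8:84178716-84178787, minus strand) lay 85 bases apart in an intron of Nanos3, a gene of the germ line, on its strand. Because mmu-miR-181a-5p and mmu-miR-181b-5p are each made by 2 hairpins with identical guide sequence, their reads cannot be assigned to a chromosome.

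Whole reads could be recovered from the RPM values and numbered 19272046 to 25080484 per library, with overlapping depths of the ages. A floor of 3 reads corresponded to 0.120 to 0.156 RPM. Among marker miRNAs of brain cell types, the summed level of the neuron list (4 of 4 found, 196252 to 255544 RPM), the oligodendrocyte list, the vessel list and the erythrocyte list (3 of 4 found) overlapped between the ages. The sum of the microglia and immune list (6 of 6 found) was 3776 to 4111 RPM at 2M and 2834 to 3402 RPM at 18M and did not overlap. This rested on mmu-miR-150-5p, a lymphocyte miRNA, with 2852 to 3124 RPM at 2M and 2068 to 2431 RPM at 18M. Without it, a choice made after seeing the data, the other 5 markers of the list summed to 835 to 987 RPM and 766 to 971 RPM and overlapped, with 3 of them (mmu-miR-223-3p, mmu-miR-155-5p and mmu-miR-146a-5p) higher in mean at 18M. Of all 20 markers found, 4 were lower at 18M without overlap and 0 higher. Beside mmu-miR-150-5p these were the vessel markers mmu-miR-143-3p (3726 to 4400 and 2827 to 3541 RPM) and mmu-miR-145a-5p (1657 to 2048 and 1261 to 1464 RPM) and the neuron marker mmu-miR-132-3p (21455 to 23149 and 18398 to 19736 RPM). Over all labels that averaged 10 RPM or more, 18.5% were lower without overlap. The other neuron markers overlapped. In mean, mmu-miR-9-5p (35088.5 and 49305.9 RPM) and mmu-miR-128-3p (42763.1 and 43543.2 RPM) were higher at 18M and mmu-miR-124-3p (127628 and 107561 RPM) was lower.

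Together the 7 members made up 1.73% ± 0.0748 (SD, n = 3) of all reads at 2M and 1.57% ± 0.0250 at 18M. The family summed to 16557, 18045 and 17138 RPM in the 2M libraries and to 15427, 15730 and 15925 RPM in the 18M libraries. All 3 of the 18M libraries lay below all 3 of the 2M libraries. The guides made up most of this, with 16694 ± 822 RPM at 2M and 15207 ± 225 RPM at 18M. The stars summed to 552 ± 84.2 RPM and 487 ± 66.3 RPM, and their ages overlapped.

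mmu-miR-181a-5p was the major guide and ranked 20 of all labels by mean level. Its level was 11217, 12292 and 11581 RPM in the 2M libraries and 10430, 10703 and 10557 RPM in the 18M libraries. The ages did not overlap, with the 18M libraries lower. mmu-miR-181b-5p ranked 57, with 3091, 3496 and 3199 RPM at 2M and 2997, 3176 and 3379 RPM at 18M. Its ages overlapped over most of their range. mmu-miR-181c-5p ranked 104, with 1020, 1134 and 1146 RPM at 2M and 1033, 874 and 927 RPM at 18M. Only the first 18M library reached into the 2M range. mmu-miR-181d-5p, the guide made next to miR-181c, ranked 143, with 643, 667 and 597 RPM at 2M and 490, 550 and 504 RPM at 18M. Every 18M library lay below every 2M library.

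The stars were the lowest members. mmu-miR-181a-1-3p, from the chromosome 1 copy, had 370, 270 and 388 RPM at 2M and 303, 257 and 373 RPM at 18M, with a spread within each age that covered most of the other. mmu-miR-181c-3p had 183, 156 and 197 RPM at 2M and 151, 141 and 157 RPM at 18M, where only the highest 18M library reached into the 2M range. mmu-miR-181a-2-3p, from the chromosome 2 copy, had 32.1, 30.9 and 30.4 RPM at 2M and 23.1, 27.7 and 27.7 RPM at 18M, with no overlap. The order of the 7 levels was the same in the 6 libraries, and the ranges of neighbours in this order did not overlap.

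**Figure D1:**
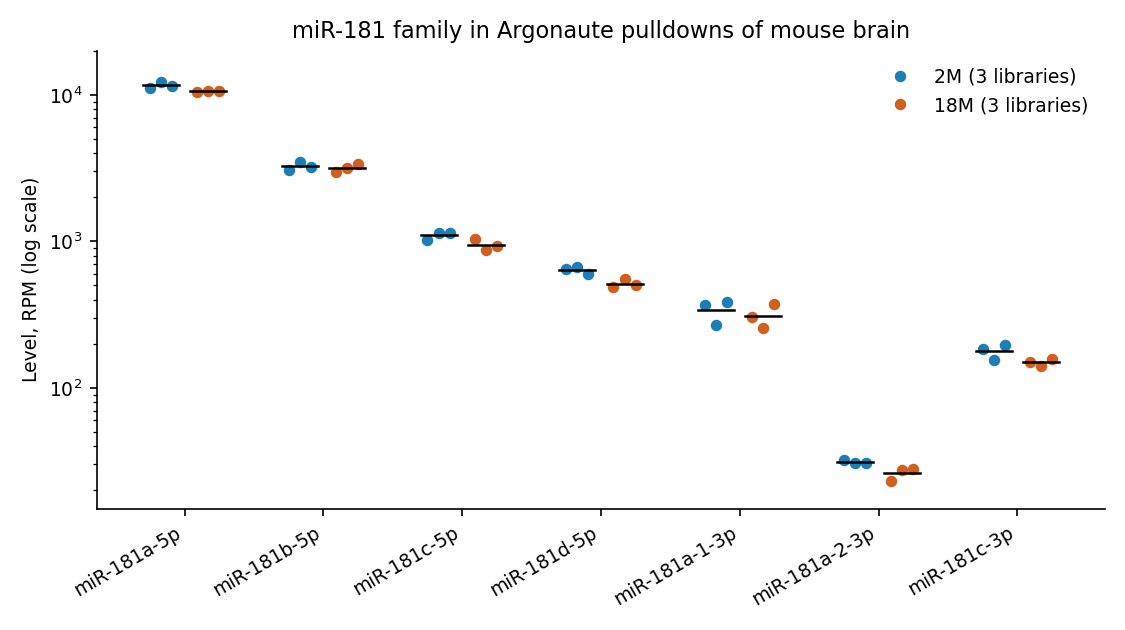
Level of the 7 miR-181 labels in RPM (log axis) in each library, 2M in blue and 18M in orange, with the group mean as a line. The order of the members is the same in all libraries, from 11130 RPM on average for mmu-miR-181a-5p to 28.6 RPM for mmu-miR-181a-2-3p.

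No member passed the test between the ages. The test was limma on log2(RPM + 1) over the 466 labels that averaged 10 RPM or more, and it counted an adjusted p (Benjamini-Hochberg) under 0.05 as passed. Of all labels, 3.22% passed it. With an unadjusted p under 0.05 limma counted 1 of the 7, mmu-miR-181d-5p, against 17% of all labels, and 0 of 7 with median-of-ratios scaling. After adjustment edgeR and DESeq2 called 0 of 7, against 3% and 9.23% of all labels. Of the members, 7 of 7 were lower in mean RPM at 18M, with a median log2 fold change of -0.22, while the median of all labels was -0.07 and 61.6% of all labels were lower. With median-of-ratios scaling 6 of 7 were lower, with a median of -0.13, while the median of all labels was 0.02 and 47.6% of them were lower. The groups did not overlap for 3 of the 7 members (mmu-miR-181a-5p, mmu-miR-181d-5p and mmu-miR-181a-2-3p), all lower at 18M. Over all labels, 18.5% were lower without overlap.

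The log2 fold change furthest from 0 was that of mmu-miR-181d-5p, at -0.30 (SE 0.12, 95% interval -0.58 to -0.03) and an adjusted p of 0.253 in limma. Its mean went from 636 ± 35.4 RPM to 515 ± 31.6 RPM. mmu-miR-181a-5p, with means of 11697 ± 547 RPM and 10563 ± 137 RPM, had a log2 fold change of -0.15 (95% interval -0.38 to 0.09, limma adjusted p = 0.462). mmu-miR-181c-5p was at -0.22 (limma adjusted p = 0.412) and mmu-miR-181b-5p at -0.03 (limma adjusted p = 0.905). With median-of-ratios scaling mmu-miR-181b-5p changed sign, to 0.06, and the others came closer to 0, at -0.05 for mmu-miR-181a-5p, -0.13 for mmu-miR-181c-5p and -0.21 for mmu-miR-181d-5p. Among the stars, mmu-miR-181c-3p and mmu-miR-181a-2-3p were each at -0.25 (limma adjusted p = 0.379 and 0.367), and mmu-miR-181a-1-3p at -0.14 with the widest interval, from -0.62 to 0.34 (limma adjusted p = 0.769). With median-of-ratios scaling the stars were at -0.16 for mmu-miR-181c-3p and mmu-miR-181a-2-3p and at -0.05 for mmu-miR-181a-1-3p. The value of mmu-miR-181a-1-3p moved with the libraries included, from -0.30 without the second 2M library to -0.01 without the second 18M library. The 4 marker miRNAs given above were also lower at 18M, and their part in the result was not tested.

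**Figure D2:**
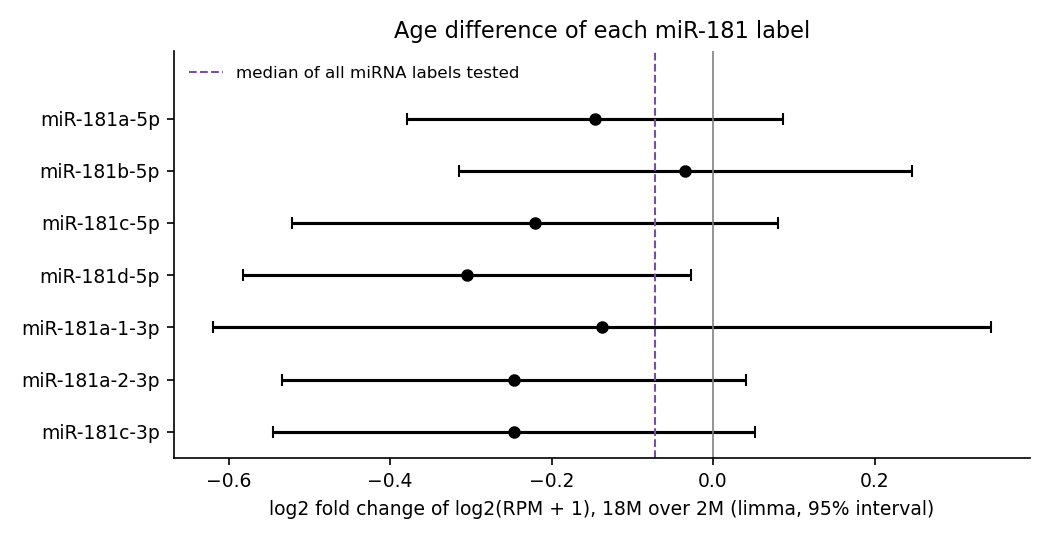
Fitted log2 fold change of each member, 18M over 2M, with its 95% interval from limma on log2(RPM + 1), 3 libraries per age. All 7 points lie below 0 (that of mmu-miR-181b-5p moves to 0.06 with median-of-ratios scaling), the interval of mmu-miR-181d-5p (-0.58 to -0.03) alone leaves out 0 before adjustment, and the dashed line marks the median of all labels at -0.07.

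Within the family, the share of each guide in the guide reads was described at both ages. mmu-miR-181a-5p made up 70.1% ± 0.174 of the guide reads at 2M and 69.5% ± 0.672 at 18M, with overlap. mmu-miR-181b-5p made up 19.4%, 19.9% and 19.4% at 2M and 20.05%, 20.75% and 21.99% at 18M, without overlap. mmu-miR-181d-5p made up 4.03%, 3.79% and 3.62% at 2M and 3.28%, 3.59% and 3.28% at 18M, also without overlap. The ratio of mmu-miR-181a-5p to mmu-miR-181b-5p was 3.59 ± 0.0627 at 2M and 3.32 ± 0.182 at 18M, again without overlap, while that of mmu-miR-181c-5p to mmu-miR-181d-5p overlapped, at 1.73 ± 0.169 and 1.85 ± 0.261. These shares and ratios were not tested, and how often such shares separate in other families was not worked out. The ratio of mmu-miR-181a-5p to mmu-miR-181b-5p draws on the same reads as their shares. Over the 6 libraries Pearson's r of log2(RPM + 1) was 0.55 for miR-181c and miR-181d, whose hairpins are neighbours. It was 0.57 for miR-181a and miR-181b, each summed over 2 hairpins, so this value does not describe a single chromosome pair. For miR-181a and miR-181d, which both separated by age, it was 0.90. The points of these descriptions share libraries and depth. Over the same 6 libraries, the 5 of 267 other labels with a mean of at least 100 RPM most like mmu-miR-181a-5p were mmu-miR-411-5p (r = 0.97), mmu-miR-145a-5p (0.95), mmu-miR-151-3p (0.95), mmu-miR-132-5p (0.93) and mmu-miR-132-3p (0.92).

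The stars gave a view of the gene copies that the guides could not. mmu-miR-181a-1-3p was 11.5, 8.73 and 12.7 times as abundant as mmu-miR-181a-2-3p in the 2M libraries and 13.1, 9.30 and 13.4 times in the 18M libraries. As a share of the reads of both, it made up 91.5% ± 1.57 at 2M and 92.1% ± 1.56 at 18M, a difference of 0.605 percentage points (exact two-sided permutation test, p = 0.5, where 3 against 3 libraries allow no p below 0.1). The second library of each age had the lowest share, 89.7% and 90.3%. The stars of miR-181b were far rarer but pointed to the same chromosome. mmu-miR-181b-1-3p had 3.42 to 5.67 RPM and mmu-miR-181b-2-3p 0.200 to 0.668 RPM, and the ratio of the chromosome 1 star to the chromosome 2 star was 5.77 to 19.4 over the libraries. The lowest level of mmu-miR-181b-2-3p, 0.200 RPM in the second 2M library, rested on 5 reads and gave the highest ratio, 19.4. mmu-miR-181d-3p had 0.598 to 2.07 RPM. A star's level also depends on how well it is loaded and kept, so these ratios are ratios of stars in RISC, not of the hairpins made.

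The strands were also compared with each other. The log2 ratio of the 5p to the 3p label was 4.98 ± 0.321 at 2M and 4.98 ± 0.255 at 18M for miR-181a, with both stars summed (exact two-sided permutation test, p = 1). For miR-181c it was 2.62 ± 0.206 and 2.65 ± 0.108 (exact two-sided permutation test, p = 0.9). Neither ratio separated the ages, as was the case for all but 11.8% of 144 pairs of labels. Over these 144 pairs the median ratio was 1.002 on the log2 scale and the 5p label was the higher in 57.6%, whichever arm is the guide. Stars made up 3.22% ± 0.596 of the family's reads at 2M and 3.10% ± 0.396 at 18M.

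The study reads toxicity from the 6mer seed, positions 2 to 7 of a read. Each seed carries a viability, the mean percent of surviving cells in 3 mouse cell lines given an siRNA that has this seed, and a low value marks a toxic seed. All 4 guides carry ACAUUC, with a viability of 86.7%, higher than that of 94.7% of the 4032 seeds in the table, whose median is 63.9%. The stars mmu-miR-181a-1-3p and mmu-miR-181c-3p carry CCAUCG with 68.4%, and mmu-miR-181a-2-3p carries CCACCG with 63.3%. The guide seed ranked 17 of all seeds by mean level, and 98.4% of its reads came from the 4 guides at either age. Reads with ACAUUC numbered 15811, 17490 and 16407 RPM at 2M and 14877, 15108 and 15265 RPM at 18M, without overlap. As a sum among 1105 seeds tested, its log2 fold change was -0.13 (SE 0.10, 95% interval -0.37 to 0.10, limma adjusted p = 0.585), and 0.905% of all seeds passed that test. The mean seed viability of the family's reads was 85.6% ± 0.144 at 2M and 85.7% ± 0.0566 at 18M, against 58.0% ± 0.105 and 57.7% ± 0.249 for all reads.

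Reads of 1 miRNA differ in their ends, and such variants are called isomiRs. A shifted 5′ end gives the read another seed. This was rare in the family: 97.6% to 99.3% of the guide reads in sequences of at least 1 RPM began at the annotated base. The share of reads with a seed other than that of the label's main, most abundant, sequence was 2.24% ± 0.175 at 2M and 2.33% ± 0.414 at 18M for mmu-miR-181a-5p, and between 1.85% and 2.84% in the means of the other guides. The median over 273 labels of at least 100 RPM was 3.27%. mmu-miR-181c-3p was the exception in the family, with 9.20% ± 0.480 at 2M and 7.94% ± 0.726 at 18M. Its highest 18M library, at 8.78%, lay below its lowest 2M library, at 8.90% (exact two-sided permutation test, p = 0.1, the smallest possible). Most of these reads began 1 base before the annotated start. Counted only over the label's sequences of at least 1 RPM, such reads made up 6.74% at 2M and 5.23% at 18M. Over all labels 14.7% did not overlap in the share with another seed in either direction, and in the family 1 of 6 did not.

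The 3′ ends were far less uniform. The main sequence was the RefSeq mature sequence for 4 members: mmu-miR-181a-5p, mmu-miR-181c-5p, mmu-miR-181a-1-3p and mmu-miR-181c-3p. For mmu-miR-181b-5p it was a 21-mer, 3 bases shorter than the mature sequence, which ranked 4 with 8.97% of the reads. For mmu-miR-181d-5p and mmu-miR-181a-2-3p it was a 21-mer too, with the mature sequence ranking 2. The main and the longer reads of miR-181a and miR-181c are shown because they carry the differences described next, as sequenced, with T for U and the seed in capitals.
mmu-miR-181a-5p, 23 nt: aACATTCAacgctgtcggtgagt
mmu-miR-181a-5p, 24 nt: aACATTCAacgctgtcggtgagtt
mmu-miR-181a-5p, 25 nt: aACATTCAacgctgtcggtgagttt
mmu-miR-181c-5p, 22 nt: aACATTCAacctgtcggtgagt
mmu-miR-181c-5p, 24 nt: aACATTCAacctgtcggtgagttt
The added bases of these longer reads are also the next bases of the hairpins, so an added U cannot be told from one copied from the gene.

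The main sequence held a smaller share of the reads at 18M for several guides. For mmu-miR-181a-5p it held 40.6%, 47.5% and 36.9% at 2M and 34.8%, 32.2% and 28.4% at 18M. For mmu-miR-181c-5p it held 37.1%, 48.6% and 30.4% at 2M and 25.9%, 21.2% and 22.6% at 18M. For mmu-miR-181b-5p it held 34.8%, 36.8% and 36.7% at 2M and 33.7%, 32.0% and 34.7% at 18M. In these 3 labels each 18M library lay below each 2M library (exact two-sided permutation test, p = 0.1 for each, the smallest possible). Without the second 2M library, which had the highest shares, the differences were -6.98 and -10.5 percentage points for miR-181a and miR-181c, in place of -9.89 and -15.5. For mmu-miR-181d-5p, at 31.4% ± 2.39 and 27.9% ± 1.38, and for mmu-miR-181a-1-3p and mmu-miR-181c-3p the ages overlapped. Over all labels 12.5% were lower without overlap in this share. Counting error alone gave 95% Wilson intervals of ± 0.176 to ± 0.647 percentage points for the shares of these 3 labels. This was well under the spread between libraries. For mmu-miR-181b-5p the intervals were ± 0.319 to ± 0.385 points. Its lowest 2M library (34.79%) and highest 18M library (34.74%) lay closer together than that. The counts therefore do not resolve the separation of the ages for this label.

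In miR-181a and miR-181c the lower share of the main sequence went with a higher share of longer reads. In miR-181a reads of 21 and 22 nt, shorter than the main sequence, also had a higher mean share. Of the mmu-miR-181a-5p reads, 43.8%, 50.5% and 40.2% were 23 nt long at 2M and 37.6%, 35.8% and 31.4% at 18M. Reads of 25 nt made up 5.13%, 3.07% and 4.502% at 2M and 6.42%, 7.49% and 6.94% at 18M, all 18M libraries above all 2M libraries. Reads of 21 nt averaged 20.3% at 2M and 22.6% at 18M, and those of 22 nt 15.9% and 18.0%, each with overlap. The mean length of the label stayed at 22.3 nt at both ages. mmu-miR-181c-5p reads of 24 nt went from 24.0%, 18.2% and 26.8% at 2M to 33.40%, 33.95% and 35.51% at 18M. The mean length of this label was 22.70 ± 0.116 nt and 22.96 ± 0.0334 nt, and that of mmu-miR-181d-5p 22.22 ± 0.0916 nt and 22.38 ± 0.0317 nt, each without overlap (exact two-sided permutation test, p = 0.1 for each, the smallest possible). Over all labels 4.4% were longer at 18M without overlap, and 41.8% were longer in mean, against 2 of 6 and 4 of 6 members. In mmu-miR-181b-5p reads of 21 nt made up 40.7% ± 1.46 and 38.9% ± 1.11, and the shares of 21, 23, 24 and 25 nt each overlapped between the ages. Its reads of 22 nt did not overlap, at 10.6%, 10.3% and 10.3% at 2M and 11.0%, 10.7% and 12.3% at 18M. Those of 18 nt did not either (0.221% and 0.274% on average). Longer reads were also more frequent at 18M in mmu-miR-181d-5p. Its 24 nt share was 16.1%, 11.7% and 13.3% at 2M and 18.5%, 18.2% and 19.2% at 18M, and those of 25, 26 and 27 nt did not overlap either.

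**Figure D3:**
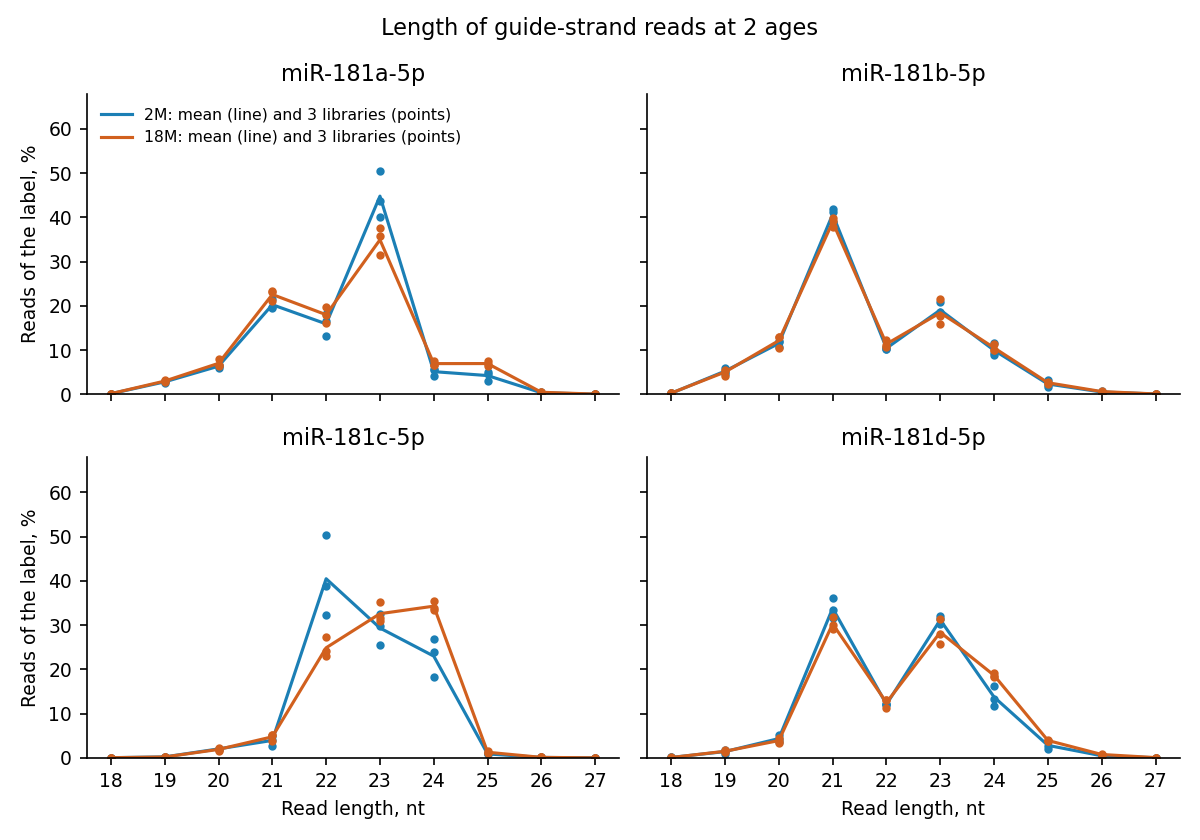
Share of the reads of each guide label (percent) by read length (nt), with the mean of 3 libraries as a line and each library as a point, 2M in blue and 18M in orange. The share at 24 nt is higher at 18M for mmu-miR-181c-5p (23.0% and 34.3% on average) and mmu-miR-181d-5p (13.7% and 18.7%). The peak of mmu-miR-181a-5p at 23 nt is lower (44.8% and 34.9%).

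Tested one by one, no sequence of the family passed. The 61 sequences that averaged 10 RPM or more held 96.1% of the family's reads. With limma, 0 of 61 had an adjusted p under 0.05 (0.366% of all 3281 sequences did), 8 of 61 had an unadjusted p under 0.05 (13% of all did), 4 in each direction, and after adjustment edgeR called 0 (0.274% of all) and DESeq2 called 2 (4.6% of all). The ages did not overlap for 18 of 61, 9 higher and 9 lower, against 21% of all sequences.

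The 23-mer of mmu-miR-181a-5p had 4555, 5840 and 4279 RPM at 2M and 3630, 3441 and 3000 RPM at 18M, without overlap. Its log2 fold change was -0.53 (SE 0.17, limma adjusted p = 0.268). The next sequences of this label, of 21 and 22 nt, were at -0.01 and 0.03. The 24-mer and 25-mer, chosen after their values were seen, were higher at 18M without overlap. The 25-mer had 547, 361 and 485 RPM at 2M and 642, 765 and 705 RPM at 18M, a log2 fold change of 0.62 (SE 0.20, limma adjusted p = 0.276), and the 24-mer was at 0.34 (limma adjusted p = 0.416). The 22-mer of mmu-miR-181c-5p had 378, 552 and 349 RPM at 2M and 267, 185 and 210 RPM at 18M, without overlap. Its log2 fold change of -0.93 (SE 0.23) was the furthest from 0 of the sequences named by the rule, with an adjusted p of 0.181 in limma and of 0.0151 in DESeq2. The 23-mer of this label was at -0.06 and the 24-mer at 0.38 (limma adjusted p = 0.416). In mmu-miR-181d-5p both the 21-mer (200 ± 23.2 and 143 ± 6.64 RPM) and the 23-mer (173 ± 9.15 and 123 ± 22.2 RPM) were lower at 18M without overlap, at -0.47 and -0.50 (limma adjusted p = 0.276 and 0.306). The 3 main sequences of mmu-miR-181b-5p lay between -0.15 and 0.03 and overlapped. The main star sequences mmu-miR-181a-1-3p (-0.37, limma adjusted p = 0.385) and mmu-miR-181c-3p (-0.30, limma adjusted p = 0.442) were lower without overlap, and that of mmu-miR-181a-2-3p was at -0.07.

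A tail is a run of bases at the 3′ end that the hairpin does not hold, added after the hairpin is cut. Reads whose match to the hairpin broke off near the 3′ end were classed as tailed, so a changed or misread base there also counted. Adenylation and uridylation of miRNAs are known in animal cells. The share of tailed reads, over sequences of at least 1 RPM, differed widely between the guides: 5.46% ± 0.508 at 2M for mmu-miR-181a-5p, 12.5% ± 0.875 for mmu-miR-181b-5p, 2.03% ± 0.248 for mmu-miR-181c-5p and 11.2% ± 1.61 for mmu-miR-181d-5p. In mmu-miR-181b-5p the tailed share was 13.2%, 11.5% and 12.7% at 2M and 14.4%, 15.5% and 14.9% at 18M, without overlap. mmu-miR-181c-5p did not overlap either, at 2.07%, 1.77% and 2.26% and then 2.35%, 2.72% and 2.30%. Over 237 labels with a hairpin in the reference, 19% were higher without overlap and 67.5% were higher in mean. These shares were not tested.

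Most tails of mmu-miR-181b-5p were A, with 8.71%, 7.78% and 8.32% of its reads at 2M and 9.97%, 10.7% and 10.5% at 18M. In mmu-miR-181d-5p the A-tailed share was 6.88% ± 0.557 and 7.51% ± 0.360. Its ages barely separated, at 7.2125% in the first 2M library and 7.2234% in the first 18M library, with 9441 to 16729 reads of the label. Counting error of the tailed shares was not worked out. Over the same labels 18.6% were higher without overlap in the A-tailed share and 71.3% were higher in mean. U tails were higher without overlap in mmu-miR-181a-5p (1.27% ± 0.156 and 1.56% ± 0.120) and mmu-miR-181c-5p (0.470% ± 0.0998 and 0.790% ± 0.135), as in 8.02% of all labels. The second sequence called by DESeq2, chosen after its values were seen, ended in AA.
mmu-miR-181b-5p, 21 nt: aACATTCAttgctgtcggtaa
It had 6.19, 6.50 and 9.24 RPM at 2M and 12.2, 13.9 and 13.3 RPM at 18M, a log2 fold change of 0.79 (SE 0.21), with an adjusted p of 0.201 in limma and of 0.0207 in DESeq2.

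**Figure D4:**
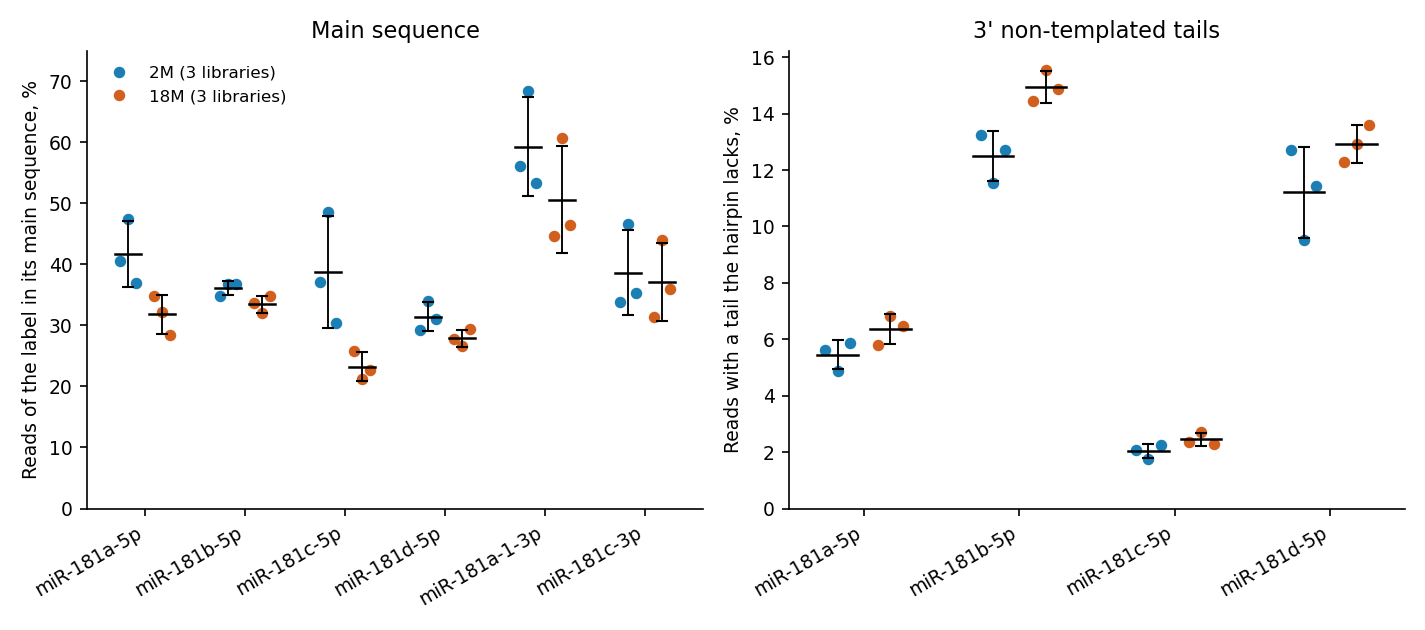
Left, percent of a label's reads in its main sequence for the 6 members of at least 100 RPM; right, percent of reads of the 4 guides with a 3′ tail that the hairpin does not hold. Points are libraries, with mean and SD per age (2M blue, 18M orange), and the tailed share of mmu-miR-181b-5p is 12.5% at 2M and 14.9% at 18M.

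The age difference of a read also moved with its last bases outside the family. Among the 3220 other sequences tested, the median log2 fold change was 0.30 for the 210 that ended in AA and -0.28 for the 98 that ended in CC, and it was -0.01 for the 389 that ended in GT and 0.04 for the 490 that ended in TT, of which 60% were above 0. It was 0.33 for the 217 that ended in AT, of which 74.7% were above 0. In the family, the 3 sequences ending in AA had a median of 0.67 and the 2 ending in CC, both stars, of -0.33. The 12 ending in GT had a median of -0.12 and the 14 ending in TT of 0.24, with 13 of the 14 above 0. The 3 ending in AT had a median of -0.05, with 1 above 0. The part of the last bases in the age differences was not tested.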

How the data were processed

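RNA bound to Argonaute from cortex and hippocampus was sequenced on an Illumina HiSEQ4000 in 3 libraries of 2M and 3 of 18M. According to the study's methods the authors demultiplexed and trimmed the reads (Trim Galore, per the labels), collapsed identical reads, removed rare ones, and annotated sequences by BLAST against lists of mouse small RNAs in SPOROS; versions are not given in the sources used here. The deposited values are RPM: the authors scaled each library to the same total. The deposited summed signal over the 6 libraries was used only to check the RPM, and the deposited viability score of each 6mer seed was used as given. All values (100%) lay within 0.05 of a read of a whole number, so whole reads were recovered. Reads were counted without molecular identifiers, so intervals and floors cover counting error only, and how well each sequence is ligated was not measured. The labels do not say that libraries are separate animals, so p-values measure the spread between these samples. No libraries were duplicates (chi-square per degree of freedom at least 16.1).

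Sample titles gave the groups. RPM were summed per label, per sequence and per seed, and features that averaged 10 RPM or more were tested with limma 3.58.1 (trend) in R 4.3.3 on log2(RPM + 1), which understates the change of low features. Other measures were compared with exact two-sided permutation tests. In simulated reads with 4-fold changes, 192 of 192 changed labels, 176 of 176 sequences and 171 of 171 seeds were called, with 2, 2 and 7 false calls among 459 labels, 3240 sequences and 1085 seeds. The simulation gave all features the same spread and changes far larger than those fitted for the members. It therefore does not show whether changes of the members' size would be called. Tails were found by matching reads of at least 1 RPM to RefSeq and GENCODE hairpins. The alternatives changed the pseudocount (0.1 or 5), the lowest mean tested (1 or 100 RPM), the scaling (median of ratios), the design (a replicate block) or the test (limma without its trend, edgeR 4.0.16 and DESeq2 1.42.0 on recovered reads), or used only reads with the main 5′ end, only sequences of at least 1 RPM, or all libraries but 1. Text names all members, the 5 labels most like mmu-miR-181a-5p, the 3 main sequences of each guide and the main sequence of each star. The members, lists and tests were chosen with earlier results of these data known. Scripts ran in Python 3.11.15 with scipy 1.17.1, pandas 2.3.3, matplotlib 3.10.9 and numpy 2.4.6.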

Additional observations from a re-analysis of the deposited data

How the results depend on the processing

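Under each alternative run, 0 of the members tested and not the guide seed reached an adjusted p under 0.05, and 6 or 7 of 7 members (6 of 6 at a mean of at least 100 RPM) were lower at 18M. Only mmu-miR-181b-5p changed sign, to 0.0565 with median-of-ratios scaling, 0.0450 with edgeR and 0.0557 with DESeq2, with -0.0783 to 0.0164 when a library was left out. The smallest adjusted p of mmu-miR-181d-5p over the alternatives was 0.207 and the largest 0.520. Of the family's sequences DESeq2 called 2, and every other setting called 0. With a library left out, the difference (18M minus 2M) in the log2 5p to 3p ratio ran from -0.122 to 0.186 for miR-181a and from -0.0490 to 0.143 for miR-181c, and that in the share of mmu-miR-181a-1-3p from -0.278 to 1.51 points, below 0 without the second 2M library. Differences near 0 also changed sign when a library was left out. These were the log2 fold changes of the sequences ranked 2 (-0.0641 to 0.0492) and 3 (-0.0706 to 0.140) of mmu-miR-181a-5p, 3 of mmu-miR-181b-5p (-0.0737 to 0.142) and 2 of mmu-miR-181c-5p (-0.129 to 0.0581). They were also the share with another seed, in points, of mmu-miR-181a-5p (-0.142 to 0.253), mmu-miR-181b-5p (-0.0814 to 0.179), mmu-miR-181c-5p (-0.244 to 0.209) and mmu-miR-181a-1-3p (-0.157 to 0.0365), the mean length, in nt, of mmu-miR-181a-5p (-0.0436 to 0.0226), mmu-miR-181b-5p (-0.0393 to 0.0818) and mmu-miR-181c-3p (-0.0173 to 0.0797), and the main-sequence share of mmu-miR-181c-3p (-4.94 to 2.45 points). The cause was not tested.

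The number of all labels called went from 15 to 2 at a mean of at least 100 RPM, to 43 with DESeq2, and to 0 to 15 with a library left out. That of all sequences went from 12 to 20 at a mean of at least 1 RPM, to 0 at a mean of at least 100 RPM, to 151 with DESeq2 and to 0 without any of the libraries. That of all seeds went from 10 to 5 and 4 at means of at least 1 and 100 RPM, to 18 with median-of-ratios scaling, to 4 without the trend, to 50 with DESeq2, and to 0 to 38 with a library left out. Over all labels, samples with the same replicate number did not deviate together (correlations of -0.171, -0.222 and -0.101). Samples with different numbers gave -0.102 to 0.179. With so few libraries per age these values cannot settle whether the numbers pair the samples. With the replicate block, 1 label, 0 sequences and 0 seeds were called, and mmu-miR-181d-5p had a log2 fold change of -0.30 (limma adjusted p = 0.398). The members were counted only from sequences with a single label, so a separate run on such sequences was not made. The whole table held 308 sequences with more than 1 label, which did not enter the members' counts. Of the 3 rarer stars, 2 entered the fit at a mean of at least 1 RPM, mmu-miR-181b-1-3p at -0.25 (limma adjusted p = 0.454) and mmu-miR-181d-3p at -0.26 (limma adjusted p = 0.581), and mmu-miR-181b-2-3p fell under that mean.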

Other observations

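The second annotation column of the table placed a further 884 sequences without a miRNA label on a hairpin of the family. They summed to 302 RPM on average (278 to 337 RPM over the libraries), which is 1.83% of the labelled reads of the family, and 232 RPM of them carried the seed of the guides. They entered no comparison above.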
